A study of Mus musculus with 56 samples.

Results

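The transcripts of the anterior hypothalamus were compared over the first 4 h of darkness in mice that had just lost access to food. Members were the 8 mice on daytime-restricted feeding (DRF) sampled at zeitgeber time 12 (ZT12, lights off) or ZT16, with 4 mice at each time, out of 56 mice in the series. All mice were C57BL/6J females of 9 weeks, housed in groups under 12 h of light and 12 h of darkness in a specific pathogen-free facility. DRF mice had food in the light phase for 7 days, so food was withdrawn at ZT12 and the ZT16 mice had been without it for 4 h. The 8 mice on nighttime-restricted feeding (NRF) sampled at the same times met darkness together with the return of food, and they served as the comparison. Darkness, time of day and loss of food all separate the DRF groups and cannot be told apart within them. Only female mice were used. Polyadenylated RNA of dissected tissue was sequenced, so a value is an average over all cells of the piece. No label says whether cage mates or a shared day link the mice. The p-values set a difference against the spread between mice within the groups that a fit holds.

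The hypothalamus holds the suprachiasmatic nucleus, the light-entrained pacemaker, together with neurons that govern feeding, body temperature and stress hormones. In each cell the CLOCK and BMAL1 proteins drive Per, Cry and Nr1d genes, whose products later repress them. Signals tied to feeding, among them glucocorticoids, insulin and body temperature, also reach hypothalamic cells and act on genes of their own, such as Fkbp5 for glucocorticoids and the heat-shock genes for temperature.

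Levels are given as log2(CPM + 1), where CPM is the read count of a gene scaled to one common library total after normalization, recovered from the deposited values. Between 30356580 and 34110090 reads were recovered per mouse over all genes. A difference is ZT16 minus ZT12 on that scale with its standard error, and it understates the fold change of transcripts with few reads. After a filter on low values, 16238 transcripts were tested. The markers of anterior hypothalamic nuclei were present in all 8 libraries, with Avp between 7.01 and 8.10 and the transcription factor Otp between 5.57 and 6.27. Markers of striatum, thalamus and cortex were also read, and their summed level ranged from 134 to 602 CPM at ZT12 and from 116 to 223 CPM at ZT16. The anterior pituitary hormone transcripts Gh and Prl had 0 reads in 6 of the 8 libraries.

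ZT16 replicates 3 and 4 stood apart from the other libraries. In these mice GC-rich transcripts read high and AT-rich transcripts read low. Across genes, the Spearman correlation of a library's deviation from the mean of the 8 mice with transcript GC content was 0.602 in replicate 3 and 0.765 in replicate 4. It was -0.527 and -0.499 in ZT16 replicates 1 and 2, and between -0.621 and 0.167 at ZT12. Set against the mean of all 56 libraries, replicates 3 and 4 had 0.659 and 0.776, and the other 54 lay between -0.485 and 0.453. The median SD over genes was 0.152 in the DRF ZT16 group, and at most 0.108 in the other 13 groups of the series. With each library's smooth trend with GC content removed, the SD of the DRF ZT16 group was 0.109.

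**Figure D1:**
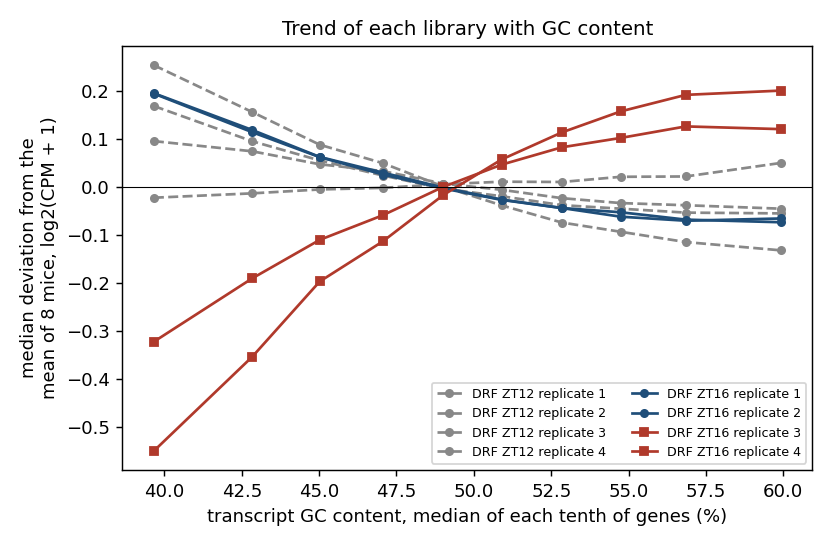
Median deviation of each of the 8 libraries from the mean of the 8 mice on the log2(CPM + 1) scale (vertical axis) in 10 equal groups of genes ordered by GC content of the transcript in percent (horizontal axis); dashed lines are ZT12 and solid lines ZT16. ZT16 replicates 3 and 4 (squares) run upwards with GC content, whereas ZT16 replicates 1 and 2 run downwards with most ZT12 libraries.

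Each result is given in 3 fits of limma with Benjamini-Hochberg adjustment over all transcripts tested and a threshold of 0.05. The 8-mouse fit held the 4 mice at ZT16 against the 4 at ZT12. The GC-corrected fit used the same 8 mice after removal of each library's GC trend. The 54-mouse fit left out ZT16 replicates 3 and 4 and took the spread from all 14 groups of the series, so its ZT16 level rests on 2 mice. The 8-mouse fit called 0 transcripts, with a smallest adjusted p-value of 0.0622. At an unadjusted p-value under 0.05 it had 916 higher and 935 lower at ZT16, which is 5.64% and 5.76% of those tested. The GC-corrected fit called 8 higher (0.0493%) and 3 lower (0.0185%). The 54-mouse fit called 164 higher (1.01%) and 70 lower (0.431%). With the GC trend removed as well, the 54-mouse fit called 261 higher (1.61%) and 122 lower (0.751%). Without replicates 3 and 4 and with the spread of the remaining 6 mice alone, 2 were called in each direction.

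ZT16 replicates 3 and 4 were then set against the mean of the same ZT12 mice, which had also served to choose the calls, so the following counts are a description. Of all transcripts tested, 40.5% had both replicates above the ZT12 mean and 39.9% both below it. With the GC trend removed these shares were 37.8% and 36.9%. Of the 164 transcripts called higher, both replicates were above the ZT12 mean for 89 (54.3%) and both below it for 44 (26.8%). With the GC trend removed, 122 (74.4%) had both above and 13 (7.93%) both below. Of the 70 called lower, both replicates were below for 48 (68.6%) and above for 7. With the GC trend removed, 55 (78.6%) had both below and 3 (4.29%) both above. The 54-mouse calls also hung on single mice. Without ZT16 replicate 1 there were 27 higher and 13 lower, without ZT16 replicate 2 there were 18 and 8, without ZT12 replicate 2 there were 283 and 168, and without ZT12 replicate 3 there were 78 and 25.

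Apart from Depp1, the transcripts named from here up to the clock genes were chosen among those whose groups did not overlap. Their separation therefore follows from the choice and is a description. Of all transcripts tested, 3.95% had all ZT16 mice above all ZT12 mice and 2.96% had all below. Plin4 had the smallest unadjusted p-value of the 8-mouse fit among the named transcripts, followed by Angptl2 and Hr. Plin4, at chr17:56100591-56109803 in GRCm38, encodes a perilipin that coats lipid droplets. In the 4 mice at ZT12 Plin4 was 2.78, 2.95, 3.43 and 3.08, and in the 4 mice at ZT16 it was 5.28, 4.55, 4.56 and 4.75. No ZT16 mouse overlapped a ZT12 mouse, as the choice required, and replicates 3 and 4 lay at the level of replicate 2. The difference was 1.73 ± 0.19, or 3.31-fold on the scale of CPM + 1, with an adjusted p-value of 0.0622 in the 8-mouse fit. Plin4 rose in the GC-corrected fit (adjusted p-value 0.0426) and in the 54-mouse fit (1.86 ± 0.37, adjusted p-value 0.00375).

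Hr, at chr14:70552212-70573548, encodes Hairless, a corepressor of nuclear receptors. In the 4 mice at ZT12 Hr was 5.10, 5.24, 4.75 and 4.80, and in the 4 mice at ZT16 it was 6.69, 6.06, 6.34 and 6.08. The groups were apart by more than either group's spread. The difference was 1.32 ± 0.16, or 2.49-fold, with an adjusted p-value of 0.0622 in the 8-mouse fit and 0.0658 in the GC-corrected fit. Hr rose in the 54-mouse fit with an adjusted p-value of 5.59e-06.

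**Figure D2:**
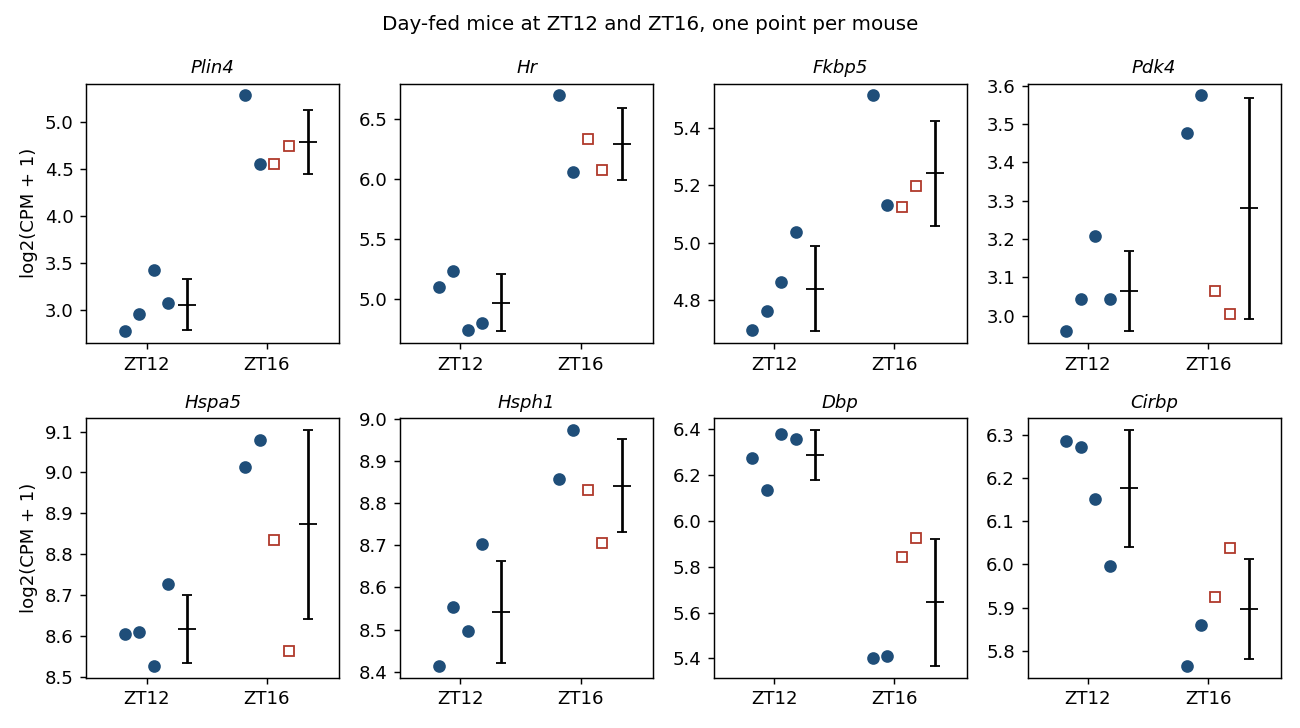
Levels of 8 transcripts on the log2(CPM + 1) scale (vertical axis, a range of its own in each panel) in the 4 day-fed mice at ZT12 and the 4 at ZT16; each point is a mouse, open squares are ZT16 replicates 3 and 4, and the black marks give mean and SD of all 4 mice. Plin4, Hr, Fkbp5, Hsph1 and Dbp do not overlap between the times, whereas Pdk4 in replicates 3 and 4 and Hspa5 in replicate 4 lie among the ZT12 mice.

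Pnpla7, a lysophospholipase, was 4.15, 3.92, 4.22 and 4.0 at ZT12 and 4.80, 4.66, 4.74 and 4.84 at ZT16, a difference of 0.69 ± 0.09. It rose in the GC-corrected fit (adjusted p-value 0.0437) and in the 54-mouse fit (0.00815). Mfsd2a, which carries lysophosphatidylcholine with omega-3 fatty acids into the brain, was 4.79, 4.79, 4.82 and 5.16 at ZT12 and 5.73, 5.56, 5.63 and 5.53 at ZT16. It rose in the 54-mouse fit by 0.75 (adjusted p-value 0.000992), and in the GC-corrected fit its adjusted p-value was 0.0626. Plcd4, a phospholipase C, had the tightest groups, with 4.83, 4.94, 4.87 and 4.85 at ZT12 and 5.32, 5.37, 5.37 and 5.41 at ZT16. Its difference of 0.49 ± 0.06 passed in the GC-corrected fit (adjusted p-value 0.00746) and in the 54-mouse fit (0.000605).

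The remaining transcripts chosen as higher were of mixed function. In the GC-corrected fit P4ha2 (a collagen prolyl hydroxylase subunit, 0.60), Timp4 (an inhibitor of matrix metalloproteinases, 0.46), Nde1 (a dynein regulator, 0.49) and Prodh (proline dehydrogenase, 0.60) rose, each with an adjusted p-value of 0.0437. Depp1, a fasting-induced target of FOXO factors chosen after its values were seen, completed the 8 transcripts called higher there, with 0.37, 0.84, 0.65 and 0.70 at ZT12 and 1.34, 1.44, 1.56 and 1.73 at ZT16. Phyhd1, Tekt4 and Atp6v0e rose in the 54-mouse fit by 0.82, 0.68 and 0.42, and none of these passed in the GC-corrected fit.

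Among the transcripts lower at ZT16, Angptl2, Hmgb3 and Dbp were called in both the GC-corrected and the 54-mouse fit. Angptl2, at chr2:33216069-33247717, encodes a secreted angiopoietin-like protein. In the 4 mice at ZT12 Angptl2 was 2.35, 2.40, 2.69 and 2.71, and in the 4 mice at ZT16 it was 1.56, 1.59, 1.69 and 1.76. The highest ZT16 mouse was below the lowest ZT12 mouse by more than the range of the ZT16 group. Angptl2 differed by -0.88 ± 0.11 with an adjusted p-value of 0.0622 in the 8-mouse fit, and it fell in the GC-corrected fit (0.00746) and in the 54-mouse fit (0.0136). Hmgb3, a chromatin protein, was 5.50, 5.64, 5.67 and 5.68 at ZT12 and 5.23, 5.18, 5.11 and 5.13 at ZT16, and it fell in the GC-corrected fit by 0.41 (adjusted p-value 0.0437) and in the 54-mouse fit by 0.42 (adjusted p-value 0.000581). Lacc1, Ccbe1, the endothelin receptor Ednrb, the glycosyltransferase Gcnt4 and the exocyst subunit Exoc2 fell in the 54-mouse fit, by between 0.31 and 0.80. Galntl6, the mineralocorticoid receptor Nr3c2 and the transcription factor Mef2c passed in none of the 3 fits, with adjusted p-values of 0.105, 0.0571 and 0.21 in the 54-mouse fit. Mef2c was 5.53, 5.78, 6.01 and 6.04 at ZT12 and 5.31, 5.29, 4.80 and 5.01 at ZT16, and the ZT16 mice farthest from ZT12 were replicates 3 and 4.

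Among clock genes, the output factor Dbp and the core repressors Nr1d1 and Cry2 fell in the 54-mouse fit, and the core activator Arntl rose. Dbp, at chr7:45705088-45710203, encodes a PAR bZIP activator that is driven by CLOCK and BMAL1. In the 4 mice at ZT12 Dbp was 6.28, 6.14, 6.38 and 6.36, and in the 4 mice at ZT16 it was 5.40, 5.41, 5.84 and 5.92. All ZT16 mice were below all ZT12 mice, and replicates 3 and 4 lay closer to ZT12 than replicates 1 and 2. The difference was -0.64 ± 0.13 in the 8-mouse fit (adjusted p-value 0.222) and -0.74 in the GC-corrected fit (adjusted p-value 0.00746), where Dbp fell. It also fell in the 54-mouse fit, by 0.88 (adjusted p-value 7.13e-08). Nr1d1, the heme-sensing repressor REV-ERBα, was 6.62, 6.58, 6.72 and 6.84 at ZT12 and 6.25, 6.25, 6.55 and 6.68 at ZT16. One mouse, ZT16 replicate 4, was within the ZT12 range. Nr1d1 fell in the 54-mouse fit by 0.44 (adjusted p-value 0.00225), as did Cry2, by 0.20 (adjusted p-value 0.017). Cry2 was 6.68, 6.65, 6.75 and 6.86 at ZT12 and 6.50, 6.57, 6.73 and 6.84 at ZT16, so that replicates 3 and 4 lay inside the ZT12 range, and its difference with all 8 mice was -0.07 ± 0.09 (adjusted p-value 0.69). Arntl, which encodes BMAL1, was 4.87, 4.82, 4.89 and 5.07 at ZT12 and 5.12, 5.26, 5.04 and 5.07 at ZT16, and it rose in the 54-mouse fit by 0.28 (0.0166).

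The Per transcripts did not pass in any of the 3 fits. Per1 was 6.03, 6.0, 6.28 and 6.34 at ZT12 and 6.01, 5.84, 6.10 and 6.26 at ZT16, a difference of -0.11 ± 0.11 with overlapping groups. The differences of Per2, Per3 and Cry1 in the 8-mouse fit were -0.07 ± 0.07, -0.05 ± 0.06 and -0.20 ± 0.11. Ciart, a repressor of CLOCK and BMAL1, was 4.02, 3.94, 4.17 and 4.10 at ZT12 and 3.84, 3.54, 3.87 and 3.88 at ZT16, without overlap, and its adjusted p-value in the 54-mouse fit was 0.0883. Hlf, a PAR bZIP factor, and Nfil3, which binds the same sites as a repressor, did not overlap between the times either, with differences of -0.32 ± 0.08 and 0.30 ± 0.09. Nr1d2 and Clock turned from below to above 0 without ZT16 replicates 3 and 4. Nr1d2 was 7.23, 7.35, 7.19 and 6.99 at ZT12 and 7.19, 7.25, 6.50 and 6.25 at ZT16, so that its difference of -0.39 ± 0.21 in the 8-mouse fit was 0.031 without replicates 3 and 4. Clock went from -0.29 ± 0.18 to 0.065 on the same change. Bhlhe41, Npas2 and Tef differed by -0.15 ± 0.09, -0.18 ± 0.25 and 0.00 ± 0.07. Over the lists, 2 of 10 clock repressors and 1 of 9 clock outputs fell in the 54-mouse fit, beside 0.431% of all transcripts, and 1 of 7 activators and ROR receptors rose, beside 1.01%.

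Among glucocorticoid-induced genes, Fkbp5, Tsc22d3, Cdkn1a, Klf15, Pdk4, Sult1a1, Plin4 and Arrdc2 rose at dusk in the 54-mouse fit of DRF mice. Of 18 genes on the list, 10 were higher at an unadjusted p-value under 0.05 in the 8-mouse fit and 0 were lower. Over all transcripts 5.64% were higher and 5.76% lower at that threshold. The median difference of the list was 0.33, beside -0.01 over all transcripts. In 10 of the 18 genes all ZT16 mice were above all ZT12 mice, beside 3.95% of all transcripts. The 54-mouse fit called 8 of the 18 higher, beside 1.01% of all transcripts, and 0 lower, and its median over the list was 0.30. In the GC-corrected fit only Plin4 of the list was called, and the median was again 0.30.

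Fkbp5, a co-chaperone of the glucocorticoid receptor, was 4.70, 4.76, 4.86 and 5.04 at ZT12 and 5.51, 5.13, 5.13 and 5.20 at ZT16. Each ZT16 mouse was above each ZT12 mouse, and the difference of 0.40 ± 0.11 had an adjusted p-value of 0.33 in the 8-mouse fit. Tsc22d3, which encodes the glucocorticoid-induced leucine zipper GILZ, was 6.27, 6.39, 6.51 and 6.45 at ZT12 and 7.13, 6.72, 6.77 and 6.56 at ZT16, again without overlap. Both rose in the 54-mouse fit, Fkbp5 by 0.48 (adjusted p-value 0.0232) and Tsc22d3 by 0.52 (0.00635). The cell cycle inhibitor Cdkn1a (0.91), the sulfotransferase Sult1a1 (0.75), the arrestin family member Arrdc2 (0.56) and the transcription factor Klf15 (0.27) rose in that fit as well. Pdk4, a kinase that restrains glucose oxidation, rose there by 0.46 (adjusted p-value 0.0227), but it differed between the ZT16 mice. It was 2.96, 3.04, 3.21 and 3.04 at ZT12 and 3.48, 3.57, 3.07 and 3.0 at ZT16, and replicates 3 and 4 lay inside the ZT12 range. Sgk1 spread widely in both groups, from 5.09 to 6.49 at ZT12 and from 5.28 to 6.92 at ZT16, and its difference was 0.11 ± 0.41. The metallothioneins Mt1 and Mt2, which bind zinc and copper, did not overlap between the times, with differences of 0.34 ± 0.10 and 0.42 ± 0.09, and neither passed in any of the 3 fits.

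**Figure D3:**
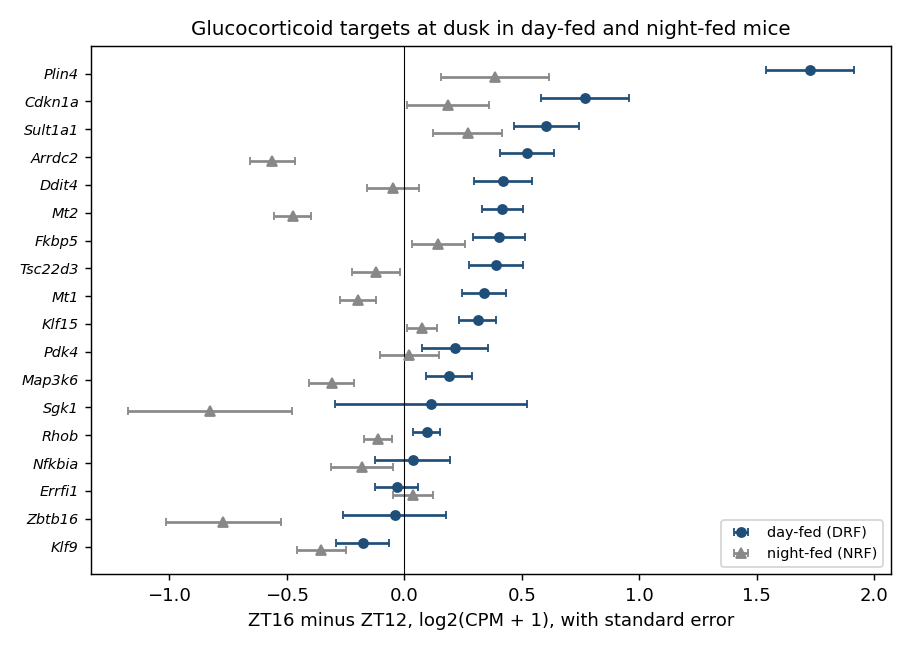
Difference ZT16 minus ZT12 on the log2(CPM + 1) scale with its standard error (horizontal axis) for the 18 glucocorticoid-induced genes in day-fed mice (circles, 8-mouse fit) and night-fed mice (triangles, 16-mouse fit). Of the 18 values, 15 are above 0 in day-fed and 7 in night-fed mice, and Arrdc2 and Mt2 lie on opposite sides of 0.

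The night-fed mice, which had food from ZT12 onwards, had other values. Over the same 18 genes the NRF median was -0.12, with 0 higher and 7 lower at an unadjusted p-value under 0.05. Over all transcripts 5.67% were higher and 4.9% lower at that threshold. Of the 7 genes, 2 fell in the 16-mouse fit of DRF and NRF mice. Between the NRF groups that fit called 52 transcripts higher (0.32%) and 28 lower (0.172%). The difference between the regimens was tested for each transcript as an interaction in a fit of the 16 DRF and NRF mice. The value is the DRF change minus the NRF change, with sign. It called 3 transcripts with a value above 0 (0.0185%) and 0 with a value below 0, where 627 and 717 transcripts had an unadjusted p-value under 0.05 in those directions. Among the glucocorticoid-induced genes, 10 of 18 had a value above 0 at an unadjusted p-value under 0.05, and 0 a value below 0.

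The 3 transcripts called were Mt2, Arrdc2 and Hr. Mt2, at chr8:94172664-94173568, was 6.52, 6.46, 6.69 and 6.57 at ZT12 and 6.87, 6.83, 7.13 and 7.09 at ZT16 in DRF mice. In NRF mice Mt2 was 7.13, 6.97, 7.24 and 7.01 at ZT12 and 6.57, 6.72, 6.57 and 6.60 at ZT16. In DRF each ZT16 mouse was above each ZT12 mouse, and in NRF each ZT16 mouse was below each ZT12 mouse. The DRF change minus the NRF change of Mt2 was 0.89 ± 0.11 (adjusted p-value 0.00474), and 0.83 after GC correction (adjusted p-value 0.00478). Without ZT16 replicates 3 and 4 and with the spread of 54 mice it was 0.76 with an adjusted p-value of 0.105.

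Arrdc2, at chr8:70835129-70839720, was 3.31, 3.43, 3.49 and 3.28 at ZT12 and 4.18, 3.69, 3.80 and 3.92 at ZT16 in DRF mice. In NRF mice Arrdc2 was 4.14, 3.94, 3.99 and 3.95 at ZT12 and 3.33, 3.45, 3.54 and 3.44 at ZT16. The regimens moved in opposite directions here too, and the change differed by 1.08 ± 0.13 (adjusted p-value 0.00474), or 0.0594 after GC correction. Hr in NRF mice was 5.97, 5.64, 5.51 and 5.55 at ZT12 and 5.76, 5.53, 5.31 and 5.50 at ZT16, with overlapping groups. Its DRF change minus its NRF change was 1.46 ± 0.21 (adjusted p-value 0.0205), or 0.0634 after GC correction. Without ZT16 replicates 3 and 4 and with the spread of 54 mice the values were 1.12 for Arrdc2 and 1.55 for Hr, with adjusted p-values of 0.000154 and 0.000256. The Hr call was lost without any one of 7 mice, with adjusted p-values of 0.0643 to 0.0754. These were DRF ZT12 replicate 3 or 4, DRF ZT16 replicate 3, NRF ZT12 replicate 2, and NRF ZT16 replicate 2, 3 or 4.

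Over the whole day, DRF ZT16 held the highest mean level of Hr among the 14 groups. Hr averaged 6.29 ± 0.30 (SD, n = 4) at DRF ZT16 and 6.02 ± 0.35 at DRF ZT20, which differ by about the spread within a group, and 5.67 ± 0.21 at NRF ZT12, the highest NRF mean. Arrdc2 averaged 3.90 ± 0.21 at DRF ZT16 and 4.0 ± 0.09 at NRF ZT12, so the highest means of the regimens were 4 h apart and close in level. Mt2 was highest at ZT20 in DRF, at 7.31 ± 0.32, and at ZT8 and ZT12 in NRF, at 7.09 ± 0.14 and 7.09 ± 0.12. Plin4 was highest at ZT16 in both regimens, at 4.79 ± 0.34 in DRF and 4.24 ± 0.27 in NRF. Fkbp5 was also highest at ZT16 in both, at 5.24 ± 0.18 and 5.0 ± 0.22.

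**Figure D4:**
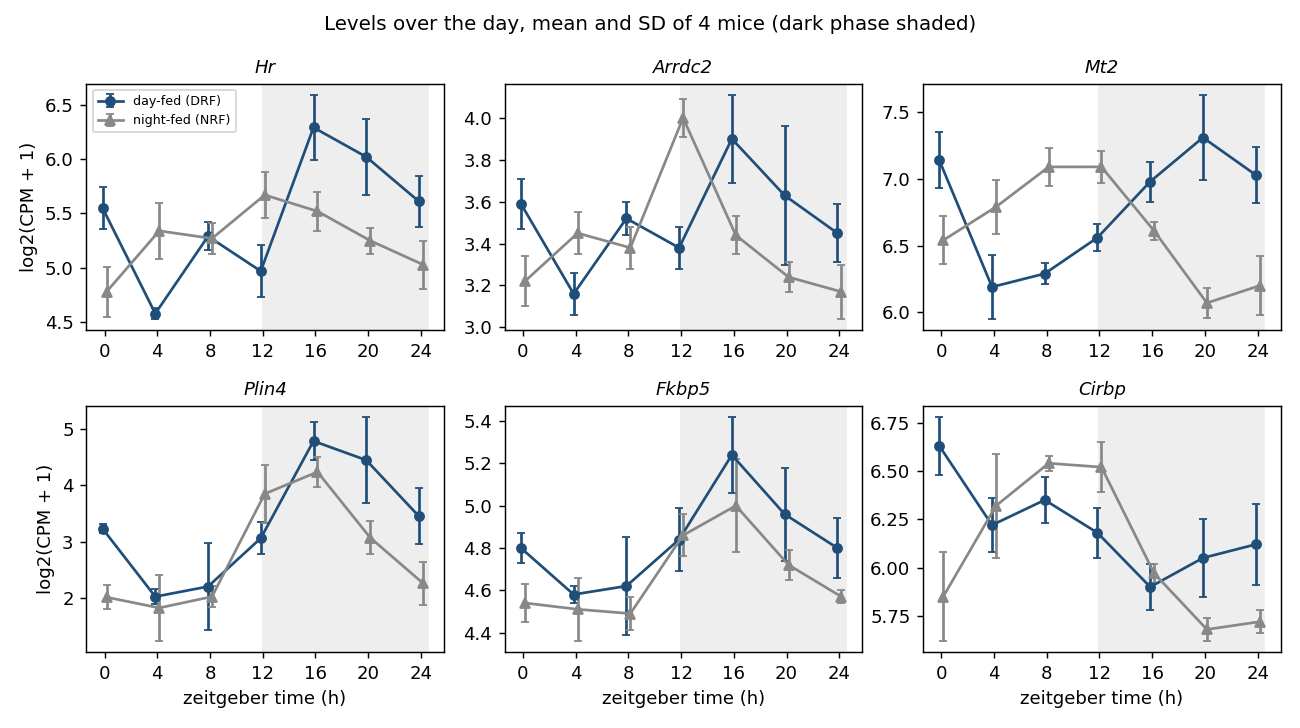
Mean and SD of 4 mice on the log2(CPM + 1) scale (vertical axis) of 6 transcripts at 7 zeitgeber times in hours (horizontal axis) in day-fed (circles) and night-fed mice (triangles); the dark phase is shaded and mice at ZT24 are not those at ZT0. Hr and Arrdc2 are higher at ZT16 than at ZT12 in day-fed mice only, Mt2 moves in opposite directions, and Cirbp is lower at ZT16 in both regimens.

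Heat-shock genes, which include those of chaperones that keep proteins folded, held 7 transcripts that rose in the 54-mouse fit. Of 22 heat-shock genes, 11 were higher at an unadjusted p-value under 0.05 in the 8-mouse fit and 0 lower, and the median difference was 0.23. Over all transcripts 5.64% were higher and 5.76% lower at that threshold. The 54-mouse fit called 7 of the 22 higher, beside 1.01% of all transcripts, and 0 lower, with a median of 0.26. The GC-corrected fit called 0. Hsph1, an HSP110 family nucleotide exchange factor at chr5:149614287-149636376, was 8.41, 8.55, 8.50 and 8.70 at ZT12 and 8.86, 8.97, 8.83 and 8.71 at ZT16. It rose in the 54-mouse fit by 0.37 (adjusted p-value 0.0125). The HSP90 co-chaperones Ahsa1, Stip1 and Fkbp4 rose in that fit by 0.28, 0.26 and 0.25, and in all of them the 4 ZT16 mice were above the 4 ZT12 mice. Chordc1, a further HSP90 partner, was 6.22, 6.31, 6.03 and 6.18 at ZT12 and 6.77, 6.85, 6.04 and 5.52 at ZT16. Replicate 3 lay within the ZT12 range and replicate 4 below it, so that Chordc1 rose by 0.63 in the 54-mouse fit (adjusted p-value 0.00589) while the 8-mouse difference was 0.11 ± 0.26. Dnaja1 and Dnajb4 were below the ZT12 range in both replicate 3 and replicate 4, and above it in replicates 1 and 2. Their differences were 0.31 and 0.27 in the 54-mouse fit, where both rose, and 0.00 ± 0.17 and -0.13 ± 0.20 in the 8-mouse fit.

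Hspa1a and Hspa1b, the inducible HSP70 genes, are near-identical copies whose reads may be split between them. Hspa1a was 4.12, 4.05, 4.0 and 4.84 at ZT12 and 4.67, 5.02, 4.95 and 4.73 at ZT16, and Hspa1b was 2.92, 2.96, 2.82 and 4.29 and 3.77, 4.29, 4.09 and 3.84. ZT12 replicate 4 was the highest of its group in both and reached the ZT16 range. Neither passed in any of the 3 fits. Hspa8, the constitutive HSP70, differed by 0.22 ± 0.08, also without a call. In NRF mice all 22 heat-shock genes had a difference above 0 and the median was 0.33, so the medians of both regimens were above 0. In the 16-mouse fit 8 of them rose in NRF mice, beside 0.32% of all transcripts. An interaction with an unadjusted p-value under 0.05 was seen for 1 of the 22, with the DRF change minus the NRF change below 0. Of all 16238 transcripts, 627 had a value above 0 and 717 a value below 0 at that threshold.

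Of 22 chaperones and stress factors of the endoplasmic reticulum, 11 were higher and 1 lower at an unadjusted p-value under 0.05 in the 8-mouse fit. The median was 0.17. Over all transcripts 5.64% were higher and 5.76% lower at that threshold. In 7 of the 22 all ZT16 mice were above all ZT12 mice, beside 3.95% of all transcripts. The 54-mouse fit called 6 of the 22 higher, beside 1.01% of all transcripts, and 0 lower, with a median of 0.21. The GC-corrected fit called 0. Hspa5 encodes BiP, the HSP70 of the endoplasmic reticulum, at chr2:34771970-34777547. In the 4 mice at ZT12 Hspa5 was 8.60, 8.61, 8.53 and 8.73, and in the 4 mice at ZT16 it was 9.01, 9.08, 8.83 and 8.56. Replicates 1 to 3 were above the ZT12 range and replicate 4 was inside it. Hspa5 rose in the 54-mouse fit by 0.43 (adjusted p-value 0.00375). Pdia6, a protein disulfide isomerase, was 7.01, 6.99, 7.01 and 7.22 at ZT12 and 7.36, 7.41, 7.55 and 7.45 at ZT16, and it rose in the 54-mouse fit by 0.33 (0.0165). Sdf2l1 (0.65), Creld2 (0.45), Pdia4 (0.40) and Herpud1 (0.22) rose in that fit as well. In NRF mice the median over this list was 0.20 and 8 of 22 rose in the 16-mouse fit, beside 0.32% of all transcripts.

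Some promoters of the heat-shock and endoplasmic reticulum lists held sequences through which such genes are classically induced. Those of genes that rose in the 54-mouse fit are shown for that reason. The motifs and windows shown were chosen after the matches were seen. Windows from 250 bases before to 50 bases after the RefSeq start on GRCm38.p6 were searched on both strands. A gene was counted if any of its windows held a match. The endoplasmic reticulum stress element, bound by NF-Y and ATF6, was searched as CCAAT and CCACG with 9 bases between them. It was in 8 of the 19 endoplasmic reticulum genes with a window (42.1%) and in 0 of 17 heat-shock genes. Among all 27025 genes with a window the share was 0.137%. Hspa5, Pdia6 and Creld2 of the 8 rose in the 54-mouse fit, whereas Hsp90b1, Calr, Canx, Dnajc3 and Syvn1 were not called. Sdf2l1, Pdia4 and Herpud1, which rose too, were not among the 8. The capitals mark the element in Hspa5, chr2:34771840-34772139, plus strand; Pdia6, chr12:17266339-17266638, plus strand; and Creld2, chr15:88819396-88819695, plus strand, where it lies on the opposite strand.
Hspa5: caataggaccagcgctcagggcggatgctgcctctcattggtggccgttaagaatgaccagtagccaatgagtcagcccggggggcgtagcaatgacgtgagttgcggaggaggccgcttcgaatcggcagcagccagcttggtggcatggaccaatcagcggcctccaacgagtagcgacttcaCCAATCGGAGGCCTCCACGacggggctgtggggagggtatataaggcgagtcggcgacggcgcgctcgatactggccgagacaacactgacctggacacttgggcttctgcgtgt
Pdia6: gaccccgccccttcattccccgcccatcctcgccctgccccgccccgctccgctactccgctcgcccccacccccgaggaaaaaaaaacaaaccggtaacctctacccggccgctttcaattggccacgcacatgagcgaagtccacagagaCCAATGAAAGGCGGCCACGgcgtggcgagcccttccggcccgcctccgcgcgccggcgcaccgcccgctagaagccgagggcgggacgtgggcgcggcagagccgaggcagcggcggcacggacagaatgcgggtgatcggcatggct
Creld2: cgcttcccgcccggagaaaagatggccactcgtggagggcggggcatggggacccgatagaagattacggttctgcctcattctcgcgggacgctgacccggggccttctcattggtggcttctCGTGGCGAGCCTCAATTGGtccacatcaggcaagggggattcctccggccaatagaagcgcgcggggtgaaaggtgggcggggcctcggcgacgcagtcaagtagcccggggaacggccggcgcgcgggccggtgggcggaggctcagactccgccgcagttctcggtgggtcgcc

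The heat-shock element was searched as GAA, TTC and GAA or as TTC, GAA and TTC with 2 bases between the blocks. It was in 4 of the 17 heat-shock genes with a window (23.5%), in 0 of 19 endoplasmic reticulum genes and in 0.662% of all genes with a window. The 4 were Hsph1, Hspd1, Hspe1 and Chordc1. Hsph1 and Chordc1 of the 4 rose in the 54-mouse fit, whereas Hspd1 and Hspe1 were not called. Dnaja1, Dnajb4, Ahsa1, Stip1 and Fkbp4, which rose too, were not among the 4. The capitals mark it in Chordc1, chr9:18292017-18292316, plus strand, where 3 matches overlap, and in Hsph1, chr5:149636266-149636565, minus strand. A match is a description of these letters and not of binding.
Chordc1: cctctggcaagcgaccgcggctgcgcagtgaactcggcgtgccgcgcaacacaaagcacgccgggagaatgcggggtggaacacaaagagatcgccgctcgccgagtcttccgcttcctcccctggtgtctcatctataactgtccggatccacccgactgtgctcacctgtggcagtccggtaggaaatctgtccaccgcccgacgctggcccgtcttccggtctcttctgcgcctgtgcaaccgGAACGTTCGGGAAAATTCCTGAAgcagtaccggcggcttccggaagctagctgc
Hsph1: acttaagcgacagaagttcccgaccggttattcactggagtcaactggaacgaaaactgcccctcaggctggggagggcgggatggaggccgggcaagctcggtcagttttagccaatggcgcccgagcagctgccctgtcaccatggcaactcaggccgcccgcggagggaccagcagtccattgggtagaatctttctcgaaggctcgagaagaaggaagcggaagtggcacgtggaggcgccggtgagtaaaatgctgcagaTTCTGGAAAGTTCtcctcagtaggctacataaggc

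The consensus of the glucocorticoid response element was searched as GNACA and TGTNC with 3 bases between them. It was in the windows of Sgk1, Mt1 and Map3k6, 3 of 17 glucocorticoid-induced genes with a window (17.6%), beside 0.537% of all genes with a window. These 3 genes were not among the 8 that rose in the 54-mouse fit. The E-box CACGTG, bound by CLOCK and BMAL1, was in 4 of 8 clock repressors with a window (Per1, Cry1, Ciart and Bhlhe41) and in 8.09% of all genes with a window.

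**Figure D5:**
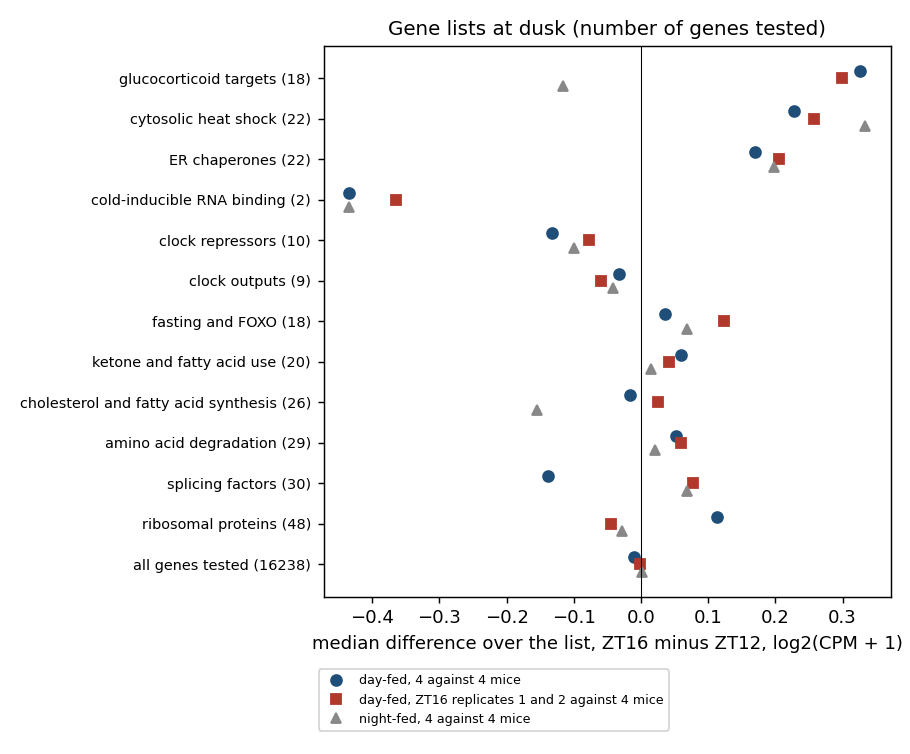
Median over the genes of a list of the difference ZT16 minus ZT12 on the log2(CPM + 1) scale (horizontal axis) in day-fed mice with all 8 mice (circles) and without ZT16 replicates 3 and 4 (squares), and in night-fed mice (triangles); the number of genes tested is in brackets. Glucocorticoid-induced genes are above 0 in day-fed mice and below 0 in night-fed mice. The heat-shock and endoplasmic reticulum lists are above 0 in all 3. The medians of splicing factors, ribosomal proteins and cholesterol synthesis change sign without the 2 mice.

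Cirbp and Rbm3 encode RNA-binding proteins that are induced by mild cold. Cirbp was 6.29, 6.27, 6.15 and 6.0 at ZT12 and 5.77, 5.86, 5.92 and 6.04 at ZT16, with replicate 4 inside the ZT12 range. Rbm3 was 6.20, 6.06, 5.85 and 6.09 and 5.65, 5.72, 5.30 and 5.18, without overlap. Their differences of -0.28 ± 0.09 and -0.59 ± 0.13 had unadjusted p-values of 0.0105 and 0.00137, and neither passed in any of the 3 fits (adjusted p-values of 0.143 and 0.26 in the 54-mouse fit). In NRF mice Cirbp fell by 0.55 in the 16-mouse fit (adjusted p-value 0.0056), and the difference between the regimens did not pass (adjusted p-value 0.539).

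Of 18 insulin and FOXO genes of the fasting response, 4 were higher and 2 lower at an unadjusted p-value under 0.05 in the 8-mouse fit. Over all transcripts 5.64% were higher and 5.76% lower at that threshold. The median of the list was 0.03, and 3 of its genes rose in the 54-mouse fit (16.7%, beside 1.01% of all transcripts). These were Pdk4 and Klf15 (also on the glucocorticoid list) and Bcl6, a transcriptional repressor, which was 4.85, 4.62, 4.61 and 4.75 at ZT12 and 5.27, 5.09, 5.05 and 5.01 at ZT16. Txnip, an inhibitor of glucose uptake, was 4.27, 4.23, 4.62 and 4.47 at ZT12 and 5.29, 4.75, 4.97 and 4.86 at ZT16. Its groups did not overlap, and its adjusted p-value was 0.102 in the 54-mouse fit. Among 20 genes of ketone and fatty acid use, Angptl4, an inhibitor of lipoprotein lipase, was the 1 that rose in the 54-mouse fit. Angptl4 was 2.06, 1.88, 2.12 and 2.51 at ZT12 and 2.90, 2.81, 2.91 and 3.10 at ZT16, and it rose by 0.71 (adjusted p-value 0.00815).

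Of 29 amino acid degradation genes tested, 3 rose in the 54-mouse fit (10.3%, beside 1.01% of all transcripts). Prodh, which starts proline oxidation, was 4.37, 4.19, 4.61 and 4.56 at ZT12 and 5.04, 4.97, 5.15 and 5.17 at ZT16, and it rose by 0.57 (adjusted p-value 0.00203). Bcat2 and Dbt, of branched-chain amino acid breakdown, rose in that fit by 0.37 and 0.36. With all 4 mice per time Dbt averaged 4.53 ± 0.11 (SD) at ZT12 and 4.69 ± 0.23 at ZT16. Its ranges of 4.44 to 4.66 and 4.45 to 4.90 overlapped, whereas those of Bcat2, 2.77 to 3.02 and 3.18 to 3.55, did not. Sds, serine dehydratase, was low at 0.85, 0.48, 1.04 and 0.83 at ZT12 and 1.41, 1.41, 1.56 and 1.26 at ZT16, without overlap, and had an adjusted p-value of 0.055 in the 54-mouse fit. Of 26 genes of cholesterol and fatty acid synthesis and 18 of the ATF4 amino acid response, 0 were called in the 54-mouse fit, and their 8-mouse medians were -0.02 and 0.11. In NRF mice 11 of the 26 synthesis genes were lower at an unadjusted p-value under 0.05, beside 4.9% of all transcripts.

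Of 28 hypothalamic peptide genes, 4 were higher and 1 lower at an unadjusted p-value under 0.05 in the 8-mouse fit. Over all transcripts 5.64% were higher and 5.76% lower at that threshold. The feeding peptide Agrp was 3.0, 2.10, 0.47 and 2.45 at ZT12 and 2.90, 3.09, 3.10 and 3.01 at ZT16, with ZT12 replicate 3 far below the rest. Pomc was 5.17, 4.54, 3.94 and 4.55 and 4.83, 5.07, 5.28 and 5.06, and it was again lowest in ZT12 replicate 3. Npy, which is made with Agrp, differed by 0.38 ± 0.27. Agrp and Pomc had unadjusted p-values of 0.0451 and 0.046, and none of these 3 passed in any of the 3 fits. Avp, Oxt, Crh and Vip differed by -0.07 ± 0.25, -0.07 ± 0.18, -0.23 ± 0.17 and -0.03 ± 0.19. Of these peptide genes, Bdnf alone rose in the 54-mouse fit, by 0.65 (adjusted p-value 0.0234). Bdnf was 4.12, 4.13, 3.65 and 3.79 at ZT12 and 4.29, 4.85, 4.52 and 3.85 at ZT16. Of 16 feeding receptors, 0 were called in the 54-mouse fit. Of 15 suprachiasmatic factors, Lhx1, a determinant of suprachiasmatic neurons, was the 1 called. Lhx1 was 2.90, 2.89, 2.70 and 2.71 at ZT12 and 3.12, 3.66, 3.59 and 3.07 at ZT16, and it rose by 0.59 (adjusted p-value 0.015).

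Fos, an immediate early gene of neuronal activity, ranged from 2.84 to 4.18 at ZT12 and from 2.86 to 4.31 at ZT16. Its difference was 0.26 ± 0.34 with an adjusted p-value of 0.721 in the 8-mouse fit. Of 20 immediate early genes, 0 were higher and 1 was lower at an unadjusted p-value under 0.05, beside 5.64% and 5.76% of all transcripts. In the 54-mouse fit 0 were called.

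Some transcripts that were called in the 54-mouse fit mark regions rather than states, and they were chosen after their values were seen. The transcription factors Foxb1, Barhl1 and Lmx1a, which are known from the posterior hypothalamus and its neighbours, rose there by 1.41, 1.52 and 1.79. Barhl1 was 1.35, 0.91, 0.17 and 0.64 at ZT12 and 2.11, 2.46, 2.71 and 0.69 at ZT16. ZT12 replicate 3 was the lowest of the 8 mice in all 3 genes, as it was in Agrp and Pomc, and ZT16 replicate 4 overlapped the ZT12 mice in all 3. Markers of striatum, thalamus and cortex had a median difference of -0.25 over 12 genes in the 8-mouse fit and -0.62 in the 54-mouse fit, with only Neurod6 called, and it rose. The median over 11 markers of anterior hypothalamic nuclei was 0.10 and 0.31 in these fits. The summed markers of striatum, thalamus and cortex were highest in ZT12 replicates 3 and 4, at 433.5 and 601.5 CPM. ZT12 replicates 1 and 2 had 134.1 and 165.7 CPM, and the ZT16 mice 142.7, 116.4, 124.7 and 222.8 CPM. The part of the dissected area in these results was not tested.

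Glial transcripts moved in both directions. In bulk tissue, fewer cells of a type and less RNA per cell cannot be told apart. Of 12 astrocyte markers, 5 were higher and 1 lower at an unadjusted p-value under 0.05 in the 8-mouse fit. Over all transcripts 5.64% were higher and 5.76% lower at that threshold. The summed level of the astrocyte markers was 5118 to 5624 CPM at ZT12 and 5523 to 6084 CPM at ZT16. Gjb6, which encodes connexin 30, was 6.29, 6.27, 6.32 and 6.29 at ZT12 and 6.95, 6.79, 6.65 and 6.41 at ZT16, without overlap. Gjb6 and the glutamine synthetase gene Glul rose in the 54-mouse fit by 0.58 and 0.40. Of 12 oligodendrocyte markers, Opalin alone was called, and it fell by 0.96. Opalin was 4.24, 4.42, 4.31 and 3.98 at ZT12 and 3.05, 3.51, 4.11 and 3.94 at ZT16, so that replicates 1 and 2 were below the ZT12 range and replicates 3 and 4 near or within it. The myelin gene Pllp, chosen after its values were seen, was 6.10, 6.06, 6.10 and 6.0 and 5.26, 5.35, 5.91 and 5.93, and it fell by 0.76. The summed oligodendrocyte markers overlapped, from 5773 to 7191 CPM at ZT12 and from 6134 to 7812 CPM at ZT16.

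Of 10 microglial markers 0 were called, with a median of -0.03 in the 8-mouse fit and -0.18 in the 54-mouse fit, and summed levels of 318 to 355 CPM at ZT12 and 307 to 366 CPM at ZT16. The microglial genes Fcrls, Cd68, Laptm5, Siglech and Itgam, also chosen after their values were seen, fell in the 54-mouse fit by between 0.31 and 0.52. With all 8 mice none of these 5 was called, their differences were between -0.10 and -0.29, and that of Laptm5 ranged from -0.24 to 0.041 on leaving out single mice. Neuronal markers summed to 5437 to 6088 CPM at ZT12 and 4674 to 5432 CPM at ZT16, which do not overlap, and 0 of 12 were called. In the 8-mouse fit 3 of the 12 were lower and 0 higher at an unadjusted p-value under 0.05. A difference above 0 was seen for 7 of the 12. The 8 choroid plexus markers summed to 239 to 281 CPM at ZT12 and 197 to 231 CPM at ZT16, which do not overlap, and 0 were called. That sum rested mainly on Enpp2, which had a mean level of 7.56 over the 8 mice. Clic6 had 4.98, and Folr1, Aqp1 and Kcnj13 had 0.62, 0.45 and 0.31. In the 8-mouse fit 4 of the 8 markers had a difference above 0, and the median was -0.003. At an unadjusted p-value under 0.05, 3 were lower and 0 higher in that fit, beside 5.76% and 5.64% of all transcripts. Of 12 endothelial and mural, 9 ependymal and tanycyte, 5 red blood cell and 2 tested pituitary markers, 0 were called in the 54-mouse fit. The part of cell composition in the results above was not tested.

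In some gene classes the direction differed with and without ZT16 replicates 3 and 4. Of 48 ribosomal protein genes, 41 had a difference above 0 in the 8-mouse fit and 13 in the 54-mouse fit, and the median went from 0.11 to -0.04. Of 40 respiratory chain genes, 28 and 3 were above 0, with medians of 0.04 and -0.08. No gene of these lists was called in the 54-mouse fit. Splicing factors went the other way, with a median of -0.14 over 30 genes in the 8-mouse fit, 0.02 in the GC-corrected fit and 0.08 in the 54-mouse fit. In the 54-mouse fit 6 of them rose and 0 fell, beside 1.01% and 0.431% of all transcripts.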

How the data were processed

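RNA of the anterior hypothalamus was sequenced on a BGI platform from 56 mice. The authors aligned reads to GRCm38 with HISAT2 and Bowtie2 and counted with RSEM, per the labels; the paper's methods add TMM normalization. The deposited score per gene, which the authors named TPM, was found to equal log2(CPM + 1) over the length of the gene, scaled so that every library has one total. These steps were undone with union-exon lengths, so that 15151 of 17564 genes resolved into whole reads and 248, mostly of high level (Hspa8 and Glul here), rest on an unchecked length. Recovery of known changes was tested on simulated data. No value column was left unmapped (0 columns).

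Genes that reached a deposited value of 1 in 80% or more of the mice were tested with limma 3.58.1 in R 4.3.3 (eBayes with trend, two-sided). The GC trend was a lowess with a span of 0.3. Members and gene lists were chosen with earlier results of these data known. Named transcripts were 12 in each direction, those called first and then by unadjusted p-value, among those with a mean of at least 2, no overlap of the groups and the same sign without ZT16 replicates 3 and 4, which gave 0 called, together with a set of clock, stress, metabolic and peptide genes and the interaction calls. List members called in the 54-mouse fit were added after their values were seen, and splicing factors are given as counts only because their signs were then seen to differ between fits. The 4 promoter motifs reported were kept from a wider scan that also held the D-box and the cAMP response element. Promoter windows and gene positions came from RefSeq and GENCODE on GRCm38. Alternatives changed the filter, scale, pseudocount, normalization, libraries, weights, block and GC correction. A few transcripts that the naming rule selected are not reported here.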

Additional observations from a re-analysis of the deposited data

Results flagged for a closer look

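The change from ZT12 to ZT16 differed between DRF and NRF mice for 3 transcripts, in the interaction test of limma with Benjamini-Hochberg adjustment. The DRF change minus the NRF change was 1.46 for Hr, 1.08 for Arrdc2 and 0.89 for Mt2. Arrdc2 and Mt2 moved in opposite directions in the regimens.

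In some groups of 4 mice, 1 mouse lay far from the other 3 by Dixon's criterion, which chance meets in about 1 in 20 groups. Among 198 groups examined, 7 met it. ZT12 replicate 4 was high for Hspa1a (4.84), Hspa1b (4.29), Fkbp4 (7.72), Pdia6 (7.22) and Mfsd2a (5.16). ZT16 replicate 2 was low for Ciart (3.54), and ZT16 replicate 3 was low for Nr3c2 (4.02).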

How the results depend on the processing

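The count of 0 calls in the 8-mouse fit (limma) held without the low-value filter, with a mean of at least 1, on the other scales and pseudocounts, with the replicate block, on leaving out any single library (0 and 0), and in limma voom on recovered reads. It became 4 higher and 1 lower with quantile normalization, 3 and 0 with median centring, 2 and 2 without ZT16 replicates 3 and 4, 36 and 13 with array weights, 8 and 3 with the GC trend removed, 11 and 5 with GC, length and level trends removed, and 11 and 4 with the GC trend removed without those replicates. The replicate block with the GC trend removed gave 0 and 1. With a spread shared by all 56 mice the counts were 1016 and 1718, or 767 and 711 with the GC trend removed, and without replicates 3 and 4 they were 164 and 70, or 261 and 122. The last pair of GC fits, voom and the following leave-one-out settings, computed for counts of calls and not for single genes, were chosen after seeing the data: leaving out single mice from the 54-mouse fit gave 18 to 283 higher and 8 to 168 lower, with 211 and 139 without ZT12 replicate 1, 78 and 25 without ZT12 replicate 3, and 126 and 49 without ZT12 replicate 4. Of the 164 and 70 calls, 154 and 67 were shared with the GC-corrected form. Replicate numbers were not taken to pair mice, since no label says that a number marks a shared animal or day. Deviations of same-numbered mice from their group means correlated at 0.182, 0.468, -0.01 and 0.512. The highest values with another number were 0.25, 0.454, 0.233 and 0.406. With the GC trend removed, same-numbered mice had 0.127, 0.264, -0.061 and 0.3, and the highest others 0.22, 0.236, 0.254 and 0.216. Numbers 2 and 4 were highest with their own number on both scales and numbers 1 and 3 were not, so pairing is not settled.

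The interaction gave 3 higher and 0 lower. It gave 31 and 23 with all 56 mice, 18 and 3 without ZT16 replicates 3 and 4 with 54 mice, and 1 and 1 with the GC trend or with all trends removed. There was 1 lower transcript without the filter, without replicates 3 and 4 and with the GC trend removed without them, and 2 with array weights. Leaving out single mice gave 2 to 3 higher and 0 to 1 lower. The cause of these shifts was not tested.

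Of 99 named transcripts, 86 kept their sign under all 27 alternatives. The other 13 changed sign under at least 1. Without ZT16 replicates 3 and 4, alone or with the shared spread, Clock was 0.065, Nr1d2 0.031, Fos -0.12, Dnajb4 0.27, Tef -0.060 and Vip 0.31, and with the GC trend removed too Clock was 0.0030, Fos -0.10, Dnajb4 0.22, Tef -0.045 and Vip 0.22. With the GC trend removed (also with the block or 56 mice) Dnajb4 was 0.067, Tef -0.062 and Vip 0.28, with all trends removed 0.092, -0.054 and 0.26, and with array weights 0.19, -0.053 and 0.21. Quantile normalization gave Tef -0.014 and Vip 0.0061, and median centring Vip 0.019. On leaving out single mice the ranges were -0.27 to 0.089 for Avp, -0.077 to 0.37 for Chordc1, -0.11 to 0.18 for Dnaja1, -0.29 to 0.065 for Dnajb4, -0.24 to 0.041 for Laptm5, -0.36 to 0.0023 for Npas2, -0.22 to 0.030 for Oxt, -0.27 to 0.39 for Sgk1, -0.034 to 0.031 for Tef and -0.14 to 0.13 for Vip.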
